A study of Homo sapiens with 3 samples.

Results

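The genes described here are 36 listed members of the ATF4 and amino acid response in HEK293T, an established cell line from human embryonic kidney. They were chosen by name, with earlier results of these data known, so member shares set beside all genes are descriptions only. A probe set counts for a member when the platform annotation gives that symbol and no other. A gene with several probe sets is given the value of the one with the highest mean. Of the 36, 34 were measured, among 22395 measured genes in all. The only probe set listed for ATF5 also names another gene, and no probe set lists GPT2, so both are not analysed here. DDIT3 alone of the 34 has a second probe set, so no other member could be read on a second one.

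Expression was measured on 3 Affymetrix arrays, with 1 array per group and no replicates. The groups are HEK293T cells stably transduced with lentivirus for pCDF1-TRAF7 G536S, for pCDF1-TRAF7 wildtype or for pCDF1 empty vector. All 3 lines were selected in puromycin and were growing asynchronously. The labels describe no deletion of the cells' own TRAF7 and do not say whether a line is a clone or a pool. TRAF7 is a RING-type ubiquitin ligase, and G536S changes an amino acid in its WD40 repeats. The design asks what differs when either form is added, and between the forms. The TRAF7 probe set read 7.35 on the G536S array, 8.11 on the wild-type array and 5.66 on the empty vector array, so both construct arrays were higher, as their labels say, and the G536S array was 0.76 below the wild-type array.

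Each value is a log2 intensity of a probe set, which the authors obtained by RMA, a method that corrects background, normalizes the arrays to each other and combines the probes. A difference of 0.585 on this scale is 1.5-fold, and that size is used to describe differences. No test is possible with 1 array per group, so no p-value or standard error is given. A difference between 2 arrays holds the differences between cultures, extractions and arrays as well as between constructs, which cannot be told apart here. Between the constructs it also holds the lower TRAF7 reading on the G536S array, which cannot be told apart from the form. Genes with a mean level of at least 1.21, the median of all genes, pass a filter on low values: 11198 genes and 32 of the 34 members. DDIT3 and JDP2 are the 2 measured members below it. On these bulk arrays, fewer cells with a transcript and less transcript per cell cannot be told apart. The markers fixed for the cell line were read at 4.74, 5.10 and 4.34 for VIM and at 4.71, 4.62 and 4.54 for CDH2 on the G536S, wild-type and empty vector arrays, with VIM 0.75 higher with wild type than with the empty vector. PAX2 was at most 1.82, KRT18 between 1.18 and 1.26 and LHX1 between 1.32 and 1.44, all near background, and KRT8, EPCAM and NEFM were below the filter. Of 11 measured markers of leukocytes, endothelium, fibroblasts and adult kidney tubule, 10 were below the filter, at 1.07 or less on every array, and COL1A1 lay between 2.47 and 2.60.

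ATF4 is the transcription factor of the integrated stress response. Kinases that sense amino acid shortage, misfolded protein in the endoplasmic reticulum, haem shortage or double-stranded RNA phosphorylate the translation factor eIF2, which lowers general protein synthesis while the ATF4 message is translated more. ATF4 then pairs with C/EBP proteins at composite DNA sites called C/EBP-ATF response elements and raises genes for amino acid uptake and synthesis, and for stress effectors. Because much of this control is translational, the level of ATF4 RNA on an array is not a measure of ATF4 protein.

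Upstream sequences are shown for CHAC1 and DDIT4, the members that differ most, and for ASNS, because such a site is the known point of contact with ATF4. SLC7A11, which differs more than ASNS, is not in the table of windows used here. Of the 36 members, 28 are in the RefSeq promoter table (GRCh38.p14), which holds windows of 300 bases, from 250 before to 50 after a transcription start. The core of the composite site, TGATGNAA, was searched on both strands. It occurs in the windows of 9 of the 28 members (32.1%), against 4.46% of the 27305 genes in the table. The members were listed as known response genes, and a match is a description of letters, not of binding. The 250 bases before a start of CHAC1 (chr15:40953221-40953470, + strand), ASNS (chr7:97872409-97872658, - strand) and DDIT4 (chr10:72273674-72273923, + strand) are printed 5′ to 3′ on the strand of the gene. Capitals mark the TGATGNAA core, read on the opposite strand in CHAC1, and in DDIT4 the letters ACGTG, the core that hypoxia-inducible factors are known to bind.
CHAC1: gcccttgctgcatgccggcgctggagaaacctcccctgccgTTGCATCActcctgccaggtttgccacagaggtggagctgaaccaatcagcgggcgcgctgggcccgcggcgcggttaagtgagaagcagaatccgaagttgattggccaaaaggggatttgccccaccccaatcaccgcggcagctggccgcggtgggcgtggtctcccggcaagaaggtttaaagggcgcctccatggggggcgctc
ASNS: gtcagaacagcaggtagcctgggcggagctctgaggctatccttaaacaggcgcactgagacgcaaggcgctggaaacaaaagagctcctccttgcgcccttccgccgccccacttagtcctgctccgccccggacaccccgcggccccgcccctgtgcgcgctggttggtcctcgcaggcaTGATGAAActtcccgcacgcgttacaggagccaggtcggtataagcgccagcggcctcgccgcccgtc
DDIT4: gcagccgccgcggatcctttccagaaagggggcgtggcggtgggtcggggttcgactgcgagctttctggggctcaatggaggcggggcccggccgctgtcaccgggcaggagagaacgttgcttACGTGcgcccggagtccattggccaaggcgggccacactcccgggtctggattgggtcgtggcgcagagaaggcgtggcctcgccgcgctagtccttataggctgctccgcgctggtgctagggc
The core begins 209 bases before the start in CHAC1 and 68 bases before it in ASNS, where it is the known nutrient-sensing site. The DDIT4 window holds no TGATGNAA, and its ACGTG begins 125 bases before the start. ACGTG on either strand is common: it is in the windows of 24.9% of genes and of 8 of the 28 members. No other capital stretch was marked, and the cores do not overlap ACGTG in these stretches.

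Shorter stretches of 4 further members with the core upstream are shown for comparison with the ASNS site: CEBPG (chr19:33374059-33374090, + strand), SLC1A5 (chr19:46784892-46784923, - strand), HERPUD1 (chr16:56931954-56931985, + strand) and JDP2 (chr14:75427994-75428021, + strand), with the core in capitals, read on the opposite strand in HERPUD1.
CEBPG: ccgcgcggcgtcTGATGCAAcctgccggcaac
SLC1A5: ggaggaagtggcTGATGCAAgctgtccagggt
HERPUD1: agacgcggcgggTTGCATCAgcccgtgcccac
JDP2: tatagccggggcTGATGCAAcccgtccc
In SLC1A4 the core lies across the start, and in SLC3A2 and SLC7A1 it lies after the start, so those are not printed. On the arrays, 5 of the 9 members with the core (CHAC1, SLC1A4, SLC1A5, SLC3A2 and SLC7A1) were lowest with G536S, where 24.7% of all genes past the filter were. Another 3 (ASNS, CEBPG and HERPUD1) were lowest with the empty vector, where 50.4% of all genes were, and JDP2, below the filter, was lowest with wild type. The wild-type array was highest for 5 (CHAC1, HERPUD1, SLC1A4, SLC3A2 and SLC7A1), where it was for 36.1% of all genes. For SLC7A1 it was only 0.01 above the empty vector array, with a sign that changed under rescaling.

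Among stress effectors, DDIT4 and CHAC1 were the members with the largest differences. Both were highest with wild-type TRAF7 and lowest with G536S, while the other 4 genes of this group (TRIB3, PPP1R15A, SESN2 and EIF4EBP1) differed by less than 1.5-fold in every comparison. DDIT4, an inhibitor of the mTORC1 kinase that is induced by several stresses including hypoxia, read 4.30 on the G536S array, 5.92 on the wild-type array and 4.89 on the empty vector array. The empty vector lay between the constructs. DDIT4 was thus 1.61 lower with G536S than with wild type (3.06-fold), which ranks 6 from the lowest of 11198 genes. Against the empty vector, wild type was higher by 1.03 (2.04-fold, rank 82 from the highest) and G536S was lower by 0.59 (rank 233 from the lowest), a size that sits on the 1.5-fold line; it was -0.55 after median centring and -0.73, -0.71 and -0.68 under quantile normalization, cyclic loess and relative to the median gene.

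CHAC1, an enzyme that degrades glutathione and is a classical ATF4 target, read 1.92 on the G536S array, 3.28 on the wild-type array and 2.36 on the empty vector array. The order of the arrays was the same as for DDIT4. G536S was 1.36 below wild type (2.56-fold, rank 14 from the lowest). Wild type was 0.92 above the empty vector (1.89-fold, rank 123 from the highest), and G536S was 0.44 below it (1.36-fold). The G536S reading of CHAC1 is low and lies just above the 75th percentile of all probe sets on that array, 1.86. Little signal is left at that level, so the size of its G536S differences is uncertain.

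SESN2, a leucine sensor that restrains mTORC1, read 5.45 on the G536S array, 5.82 on the wild-type array and 5.43 on the empty vector array. It was highest with wild type, by 0.39 over the empty vector, and G536S and the empty vector differed by 0.02, a sign that turned under some rescalings. PPP1R15A, the phosphatase subunit that reverses eIF2 phosphorylation, read 2.22, 1.88 and 1.85 on the G536S, wild-type and empty vector arrays. TRIB3, a pseudokinase that dampens ATF4 activity, read 1.53, 1.31 and 1.65 in the same order of arrays. TRIB3, another classical ATF4 target, was therefore not higher with wild type where CHAC1 was: it was lower than the empty vector by 0.35, near background. EIF4EBP1, a translation inhibitor downstream of mTORC1, read 6.82 with G536S, 6.63 with wild type and 6.80 with empty vector.

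**Figure D1:**
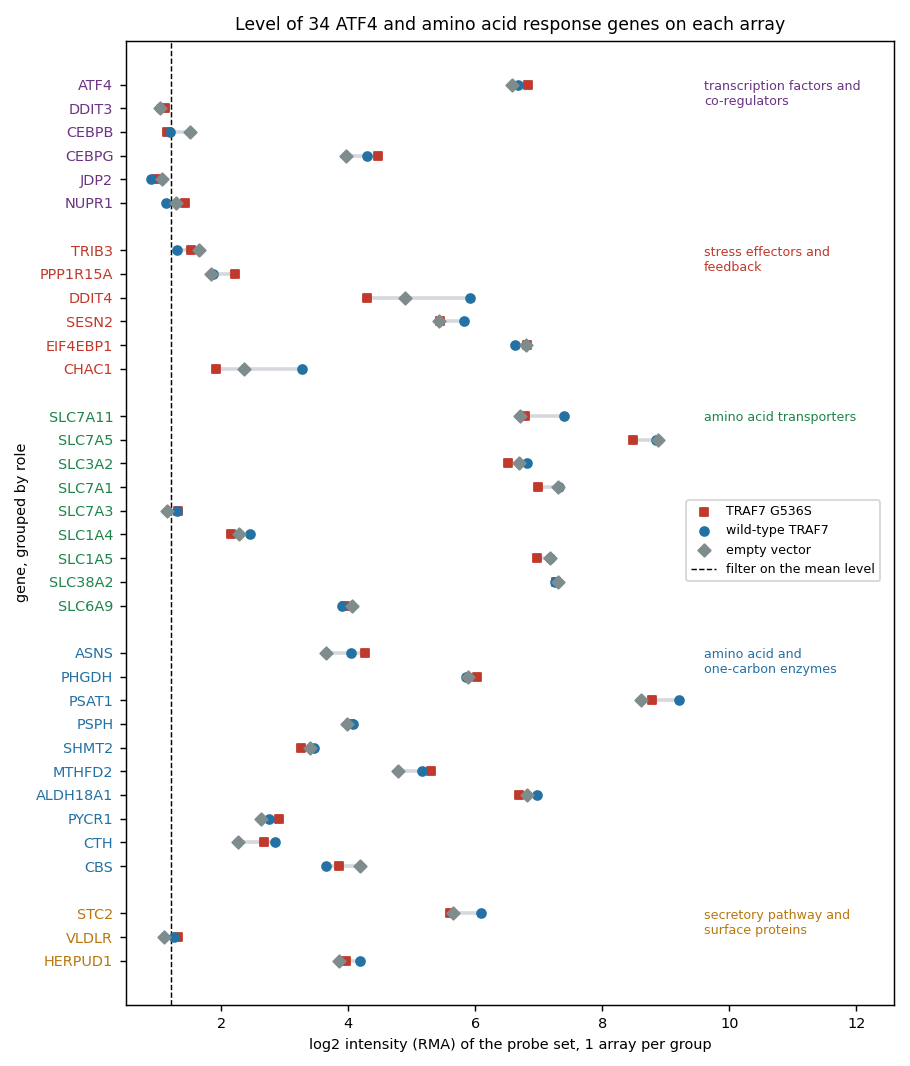
Level of each of the 34 measured members on the 3 arrays, as log2 intensity, with genes in rows grouped by role, squares for G536S, circles for wild type, diamonds for the empty vector and a dashed line at the filter on the mean (1.21). The widest gaps are in DDIT4 (4.30, 5.92 and 4.89) and CHAC1 (1.92, 3.28 and 2.36), and probe sets of different genes are not to be compared in level.

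Of the 6 measured transcription factors and co-regulators, 0 reached 1.5-fold in the 3 comparisons, and 4 of the 6 were near background or below the filter. Of all genes past the filter, 1.79% to 6.07% reached it in each direction of a single comparison. ATF4 itself read 6.83 on the G536S array, 6.67 on the wild-type array and 6.58 on the empty vector array. The G536S array was highest, by 0.25 over the empty vector, and the 0.08 between wild type and the empty vector changed sign under other scalings. CEBPG, a C/EBP family member that pairs with ATF4, read 4.47 with G536S, 4.30 with wild type and 3.96 with empty vector. Both constructs were above the empty vector, by 0.51 with G536S and by 0.33 with wild type, and these signs held under all 4 rescalings.

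CEBPB, another partner of ATF4, was near background, at 1.15 with G536S and 1.20 with wild type, which lay below the empty vector by 0.35 and 0.31. NUPR1, a stress-induced chromatin protein, read 1.44, 1.13 and 1.29 on the G536S, wild-type and empty vector arrays. DDIT3, which encodes the pro-apoptotic factor CHOP, read 1.11, 1.03 and 1.03, below the filter, and its second probe set was at 0.69, 0.72 and 0.69. JDP2, an AP-1 repressor, was below the filter too, at 0.99, 0.90 and 1.06. A change in DDIT3 or JDP2 could not be read at these levels.

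Of the 9 amino acid transporters, 1 was 1.5-fold apart in a comparison, SLC7A11. It was higher with wild type than with the empty vector, where 5.42% of all genes past the filter were. With G536S it was lower than with wild type, where 1.81% were. SLC7A11, the cystine importer that feeds glutathione synthesis, read 6.78 on the G536S array, 7.39 on the wild-type array and 6.70 on the empty vector array. The wild-type array stood above both others. Wild type was 0.69 above the empty vector (1.62-fold, rank 357 from the highest) and G536S was 0.62 below wild type (1.53-fold, rank 175 from the lowest). G536S and the empty vector differed by 0.08, with a sign that turned under some rescalings.

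A different pattern was seen in SLC7A5, SLC7A1 and SLC1A5, which were lowest with G536S and nearly level between wild type and the empty vector. SLC7A5, the leucine importer LAT1, read 8.48 with G536S, 8.85 with wild type and 8.88 with empty vector. SLC7A1, an arginine and lysine carrier, read 6.98, 7.31 and 7.31 in the same order of arrays. SLC1A5, a glutamine carrier, read 6.97, 7.18 and 7.18 likewise. G536S minus wild type was -0.37 for SLC7A5, -0.33 for SLC7A1 and -0.21 for SLC1A5, each under 1.5-fold.

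SLC3A2, the heavy chain that SLC7A5 and SLC7A11 both need at the membrane, read 6.52 with G536S, 6.82 with wild type and 6.68 with empty vector. SLC1A4, a carrier of small neutral amino acids including serine, read 2.15, 2.46 and 2.28 in that order. The G536S array was thus lowest for 5 of the 9 transporters, SLC7A5, SLC3A2, SLC7A1, SLC1A4 and SLC1A5, where it was lowest for 24.7% of all genes past the filter. SLC38A2, another neutral amino acid carrier that responds to starvation, lay between 7.26 and 7.30 on all arrays. The glycine carrier SLC6A9 read 3.95, 3.90 and 4.05, and the cationic carrier SLC7A3, near background, 1.32, 1.30 and 1.14. The median of G536S minus wild type over the 9 transporters was -0.30, from -0.32 to -0.29 under 4 rescalings, against 0.01 over all genes past the filter.

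Among the 10 measured enzymes, the empty vector array was lowest for 6, near its share of 50.4% over all genes past the filter. ASNS, which makes asparagine and is a textbook ATF4 target, read 4.26 on the G536S array, 4.04 on the wild-type array and 3.64 on the empty vector array. Both constructs were above the empty vector, G536S by 0.62 (1.53-fold, rank 575 from the highest of 11198 genes) and wild type by 0.40. Under 3 of the 4 rescalings the G536S difference was below 1.5-fold, down to 0.46. MTHFD2, a mitochondrial enzyme of folate metabolism, had the same order, at 5.30, 5.16 and 4.79, with G536S 0.51 and wild type 0.37 above the empty vector. ASNS and MTHFD2 were therefore not lower with G536S than with wild type, unlike DDIT4, CHAC1 and SLC7A11. The difference of G536S from wild type was 0.22 for ASNS and 0.14 for MTHFD2.

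PSAT1, an enzyme of serine synthesis, read 8.78 with G536S, 9.21 with wild type and 8.62 with empty vector. Wild type was highest, 0.59 above the empty vector, on the 1.5-fold line, and 0.43 above G536S. The other serine synthesis enzymes were flatter: PHGDH read 6.02, 5.86 and 5.88, and PSPH read 4.02, 4.08 and 3.98, on the G536S, wild-type and empty vector arrays. SHMT2, which moves a carbon unit from serine to folate in mitochondria, read 3.26, 3.46 and 3.39.

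The transsulfuration enzymes differed in opposite directions. CTH, which releases cysteine from cystathionine, read 2.67 with G536S, 2.85 with wild type and 2.26 with empty vector, so wild type was 0.59 above the empty vector, also on the line. CBS, the enzyme of the preceding step, read 3.86 with G536S, 3.64 with wild type and 4.19 with empty vector, a difference of -0.55 between wild type and the empty vector. CBS was read on 1 probe set, as were all measured members but DDIT3, so its value is uncertain. The proline synthesis enzymes ALDH18A1 (6.70, 6.97 and 6.81) and PYCR1 (2.91, 2.74 and 2.63) differed by under 1.5-fold between any arrays.

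Of the 3 secreted, surface or membrane proteins, STC2, a secreted glycoprotein induced by stress, read 5.61 with G536S, 6.08 with wild type and 5.65 with empty vector. It was 0.43 higher with wild type than with the empty vector and 0.48 lower with G536S than with wild type. HERPUD1, a membrane protein of endoplasmic reticulum protein disposal, read 3.96, 4.18 and 3.85. VLDLR, a lipoprotein receptor, was near background at 1.31, 1.26 and 1.10.

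**Figure D2:**
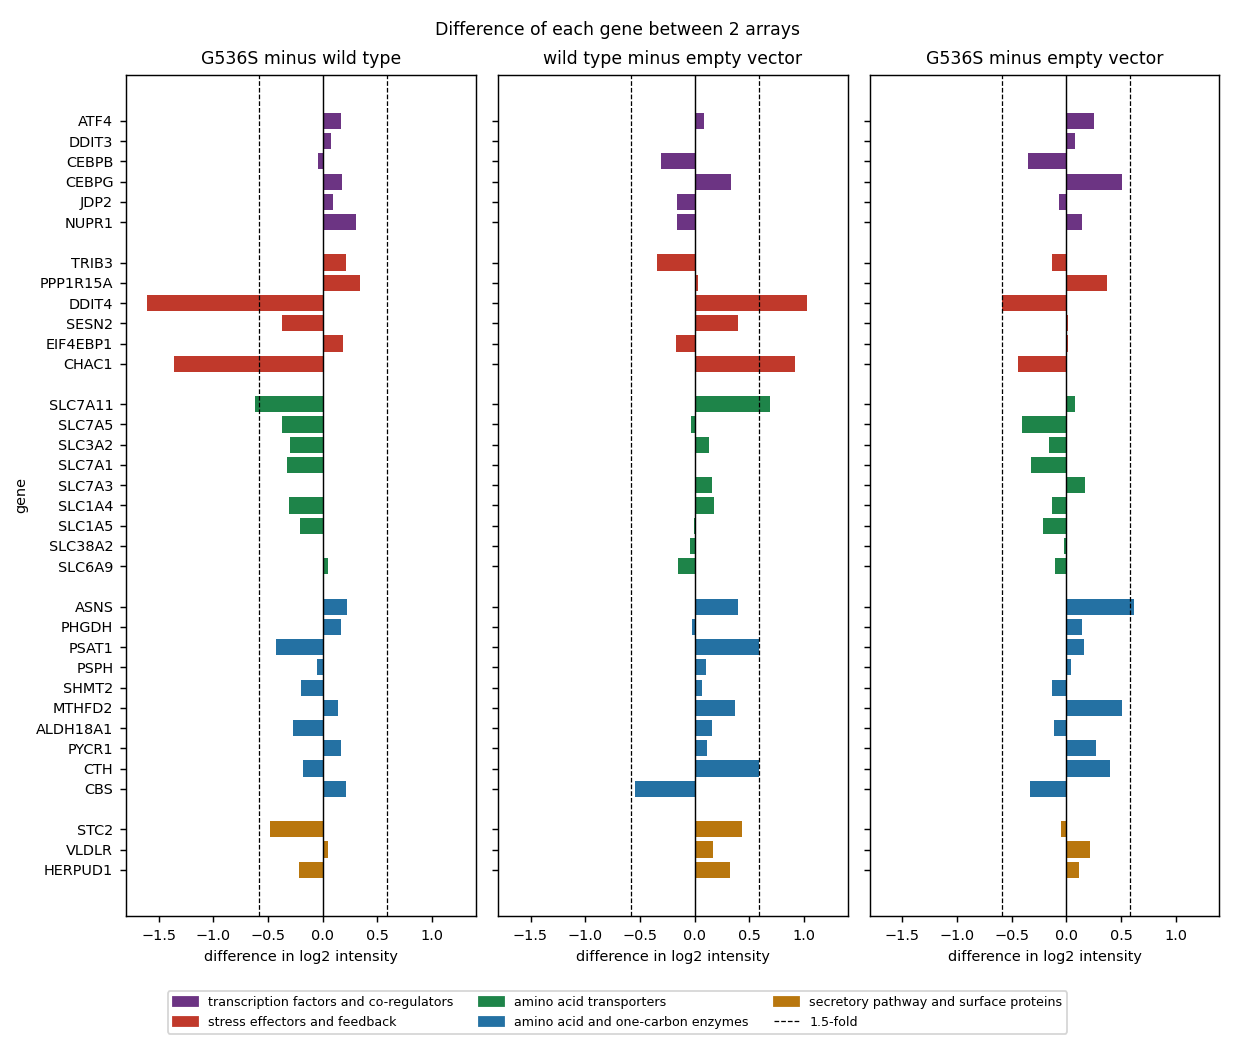
Difference in log2 intensity for each of the 34 members, with genes in rows coloured by role, for G536S minus wild type, wild type minus empty vector and G536S minus empty vector, and dashed lines at 1.5-fold (0.585). Bars beyond the lines are DDIT4, CHAC1 and SLC7A11 in the left panel, DDIT4, CHAC1, SLC7A11, PSAT1 and CTH in the middle panel, and ASNS and DDIT4 in the right panel.

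Wild-type TRAF7 against the empty vector had 5 members at least 1.5-fold higher among the 32 past the filter (15.6%), where 5.42% of all genes past it were, and 0 at least 1.5-fold lower, where 1.79% were. The 5 were DDIT4, CHAC1, SLC7A11, PSAT1 and CTH. Because the list was chosen with earlier results of these data known, the gap between the shares is a description only. PSAT1 and CTH sit on the line: the smallest difference inside it was 0.59 (CTH) and the largest outside it -0.55 (CBS). Over the 34 members the median difference was 0.11, against 0.08 over all genes past the filter, and 22 of the 32 past the filter were above 0, where 62.6% of all genes were. The count of 5 became 3 under quantile normalization and under cyclic loess, which took out PSAT1 and CTH and put CBS past the line as lower. Of all 11198 genes past the filter, 347 and 369 were at least 1.5-fold higher in these settings, against 607. At least 1.5-fold lower were 383 and 356, against 201. Of all genes 1.5-fold apart in this comparison, 75.1% were higher with wild type, and 47.5% after quantile normalization.

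G536S against the empty vector had 1 member at least 1.5-fold higher, ASNS, and 1 at least 1.5-fold lower, DDIT4, each 3.12% of the 32 past the filter. Of all genes past the filter, 6.07% were at least 1.5-fold higher and 2.08% lower. The median over the 34 members was 0.02, against 0.10 over all genes past the filter. Of the 32 members, 17 were above 0, where 63.9% of all genes were. The median became -0.11 under quantile normalization, so the list as a whole has no stable direction here. Of all genes 1.5-fold apart, 74.5% were higher with G536S, and 41.5% after quantile normalization. This comparison and the one of wild type with the empty vector share the empty vector array, which was the lowest of the 3 for 50.4% of all genes past the filter and for 14 of the 32 members.

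G536S against wild type uses no empty vector array, and rescaling moved it least. The TRAF7 reading was 0.76 lower on the G536S array, so form and level of TRAF7 cannot be told apart here. Of the 32 members, 3 were at least 1.5-fold lower (9.38%), where 1.81% of all genes past the filter were, and 0 were higher, where 2.17% were. DDIT4, CHAC1 and SLC7A11 are the 3, and DDIT4 and CHAC1 were over 2-fold lower, where 0.268% of all genes were. Here too the list was chosen with earlier results known, so these gaps are descriptions only. The member nearest to the line outside it was STC2, at -0.48. Over the 34 members the median was -0.02 and the mean -0.14, and 15 of the 32 past the filter were above 0, where 51.4% of all genes were. The 22 members that also pass a filter at the 75th percentile had a median of -0.21, against 0.01 over all genes at that filter. The sign of 33 of 34 members held under 4 rescalings, all but SLC38A2, against 26 of 34 in each comparison with the empty vector.

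**Figure D3:**
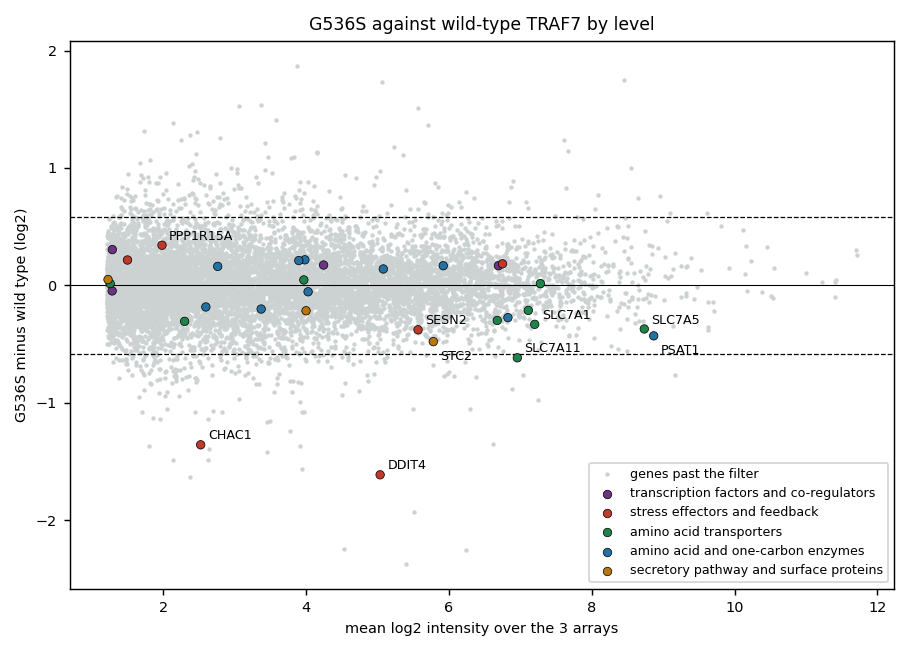
Difference of G536S minus wild type (log2) against the mean level over the 3 arrays for all 11198 genes past the filter (grey) and the 32 members past it (coloured by role), with dashed lines at 1.5-fold. DDIT4 (-1.61) and CHAC1 (-1.36) lie well below the cloud of grey points at their level, and SLC7A11 (-0.62) just below the lower line.

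Genes around the response were read through 6 lists: eIF2 kinases and translation control, other ATF4 targets, the ATF6 and IRE1 arm of the unfolded protein response, NRF2 targets, amino acid and mTORC1 sensing, and glutathione metabolism. None of the members is in them. Of 23 other ATF4 targets, 18 passed the filter. At least 1.5-fold higher with wild type than with the empty vector were 3 of them, ATF3, ALDH1L2 and SLC38A1, where 5.42% of all genes past the filter were, and with G536S 2, ATF3 and ALDH1L2, where 6.07% were. Between the constructs 0 of the 18 were 1.5-fold apart, where 2.17% of all genes past the filter were higher with G536S and 1.81% lower. ATF3, a stress-induced repressor, read 2.06 on the G536S array, 2.03 on the wild-type array and 1.28 on the empty vector array. Its mean of 1.79 is near background, so its differences are uncertain. ALDH1L2, a mitochondrial folate enzyme, read 2.83, 2.87 and 2.07, and SLC38A1, a glutamine carrier, 7.41, 7.60 and 6.93. These 3 had the empty vector lowest, as ASNS, MTHFD2 and 50.4% of all genes past the filter did, and G536S minus wild type was 0.03, -0.04 and -0.20.

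NRF2, the factor of the oxidative stress response, also acts on SLC7A11. Of its 10 measured targets, 9 passed the filter. HMOX1 and GCLM were at least 1.5-fold higher with wild type than with the empty vector, where 5.42% of all genes past the filter were. HMOX1, haem oxygenase, read 2.25 on the G536S array, 2.85 on the wild-type array and 2.16 on the empty vector array. GCLM, a subunit of the enzyme that starts glutathione synthesis, read 3.53, 3.93 and 3.33. The wild-type array was highest for both, and G536S was below wild type by 0.60 for HMOX1 and 0.40 for GCLM. HMOX1 was thus at least 1.5-fold lower with G536S, where 1.81% of all genes past the filter were. Under some rescalings the differences of wild type from the empty vector were under 1.5-fold, down to 0.54 for HMOX1 and 0.45 for GCLM. The median over the 10 was 0.04 for wild type against the empty vector and -0.15 for G536S against wild type. Of the 10, 6 and 2 were above 0 in these comparisons, where 62.6% and 51.4% of all genes past the filter were. The other 4 were lower with wild type than with the empty vector, down to -0.50. Whether NRF2 acted on SLC7A11 in these cells was not tested.

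Upstream, 1 of 16 measured genes for eIF2 kinases and translation control was 1.5-fold apart: EIF2AK2, the kinase PKR that senses double-stranded RNA. It read 6.41 with G536S, 6.02 with wild type and 5.81 with empty vector. With G536S it was 0.60 above the empty vector, and down to 0.45 under rescaling. Of all genes past the filter, 6.07% were at least 1.5-fold higher in that comparison, so 1 of 16 is near that share. In the ATF6 and IRE1 arm, 1 of the 14 past the filter was at least 1.5-fold above the empty vector with each construct. Shares of all genes were 6.07% with G536S and 5.42% with wild type, so 1 of 14 is near them. This gene was SEL1L, a part of the protein disposal complex of the endoplasmic reticulum. It read 4.73, 4.66 and 4.03 on the G536S, wild-type and empty vector arrays. Under some rescalings its differences were less than 1.5-fold, down to 0.56 for G536S and 0.50 for wild type. SDF2L1, a chaperone cofactor, read 3.28, 3.45 and 3.87 and was 0.59 below the empty vector with G536S, with a range from -0.72 to -0.56 over the rescalings. At least 1.5-fold lower in that comparison were 2.08% of all genes past the filter. Of the 19 amino acid and mTORC1 sensing genes and the 6 glutathione genes past the filter, 0 were 1.5-fold apart in any comparison. Of all genes past the filter, 1.79% to 6.07% were past the line in each direction of a single comparison. The share over any comparison is larger and was not counted.

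**Figure D4:**
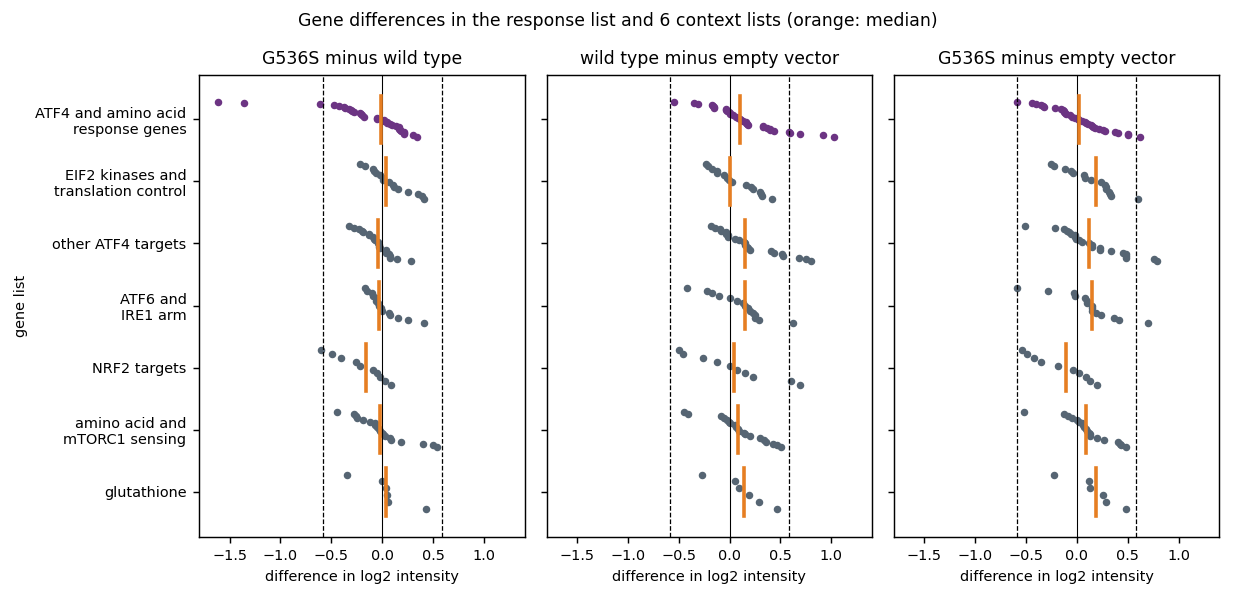
Differences in log2 intensity of single genes (points, sorted within each list) for the 34 members and the measured genes of the 6 context lists, in 3 panels for the 3 comparisons, with list medians in orange and dashed lines at 1.5-fold. In the left panel the members reach -1.61 while no gene of the other lists lies below -0.60.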

How the data were processed

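The deposited table holds log2 intensities for 53617 probe sets on 3 arrays, which the authors computed by RMA, as the submitters' processing notes state. Software version and genome build: not given in the sources used here. Base 2 was inferred, since the highest value, 12.57, is too high for a natural log of 16-bit data. Names come from the platform annotation, brought up to date by Entrez ID with RefSeq's GRCh38.p14 gene table: 23871 name 1 gene, 1842 several and 27904 are unnamed here. The number of arrays limits the precision.

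From there, differences between arrays were taken and set beside those of all genes past the filter. The members and lists were chosen with earlier results of these data known. Members at least 1.5-fold apart in a comparison are given on every array, and the others by value or range. Genes of the context lists are named only when past the filter and 1.5-fold apart. Results were recomputed with probe sets of a gene averaged, without the filter, with it at the 75th percentile (2.87), and with quantile normalization, median centring, cyclic loess and a floor at the 25th percentile (0.86). Differences relative to the median gene past the filter were added after seeing the data; the 4 rescalings are these and the quantile, centring and loess settings. Counting was tested on simulated data. Python 3.11.15, numpy 2.4.6, pandas 2.3.3, matplotlib 3.10.9, R 4.3.3 and limma 3.58.1 were used.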

Additional observations from a re-analysis of the deposited data

Results flagged for a closer look

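DDIT4 was lower with G536S than with the empty vector (-0.59) and higher with wild-type TRAF7 than with it (1.03). It was singled out because it is the only member past 1.5-fold in both comparisons, in opposite directions. The difference of -0.59 sits on the 1.5-fold line and was -0.55, inside it, after median centring. With 1 array per group the difference between the constructs was not tested, and both comparisons share the empty vector array.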

How the results depend on the processing

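Of 612 values of single members under other settings, 597 kept their direction and their side of the 1.5-fold line or stayed inside it, 10 fell inside it and 5 moved past it; no value past the line changed sign. For wild type against the empty vector, members at least 1.5-fold higher numbered 3 with the filter at the 75th percentile, quantile normalization, cyclic loess and relative to the median gene, against 5, and members lower numbered 1 in the last 3, against 0 (CBS). All genes higher numbered 312 of 5599, 347, 369 and 403 in those settings, against 607 of 11198. All genes lower numbered 383, 356 and 307 in the last 3, against 201. For G536S against the empty vector, members higher numbered 0 under quantile normalization, cyclic loess and relative to the median gene, against 1. Of all genes past the filter, 353, 390 and 425 were higher in these settings, against 680. Members lower numbered 3 under quantile normalization (DDIT4, CHAC1 and SLC7A5) and 0 under median centring, where DDIT4 was at -0.55, against 1. All genes lower numbered 498 under quantile normalization and 201 under median centring, against 233. The list median of that comparison became -0.11 under quantile normalization and -0.10 under cyclic loess, against 0.02. The median gene past the filter became -0.03 and -0.01 in these settings, against 0.10. For G536S against wild type the median became -0.21 with the filter at the 75th percentile, which keeps 22 members and drops CHAC1, against -0.02. Quantile normalization moved the median gene against the empty vector by -0.13 (G536S) and -0.11 (wild type), so those differences are best read relative to it. The cause of these moves was not tested, beyond the fewer genes kept by the stricter filter. No paired analysis was possible because each group has 1 array. Members near background (CEBPB, NUPR1, TRIB3, PPP1R15A, SLC7A3 and VLDLR, with means below 2) have little signal in which a difference could show.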
